A study of Rattus norvegicus and Mus musculus with 24 samples.

Results

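Interferon-stimulated genes are the genes whose RNA rises when a cell receives an interferon signal. They were examined as a set of 42 named genes in kidney RNA of rats and mice lacking Ctns, the gene for cystinosin, which exports cystine from the lysosome. A gene belonged to the set if its symbol was on the list, whatever its value. The list was chosen with earlier results of these data known, so the counts below do not come from a blind choice. Of the 42 genes, 35 had a row among the 17376 symbols of the mouse table and 35 among the 14931 symbols of the rat table, and 31 had a row in both. IFIT1, MX2 and GBP2 had no row under those symbols in either table used here and were not analysed. All 35 mouse genes and 34 of the 35 rat genes had enough reads to be tested. The exception was OAS1 in the rat, which had at most 2 reads per library.

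Bulk RNA sequencing of the kidney compared 4 Ctns KO with 4 WT mice and 8 Ctns KO with 8 WT rats, 1 library per animal. The mice were on a C57BL/6 background and the rats on a Sprague-Dawley background, each with control littermates of matched age and sex, and the labels name no treatment. The study names female mice of several ages without saying which were sequenced, and no age was found for the sequenced rats. The labels name the tissue as kidney cortex and the cell type as proximal tubule cells, and their protocol speaks of microdissected tubules, while the methods speak of cortex. The rats carry the numbers 17 to 24 and 25 to 32, odd for WT and even for KO, and the labels do not say what separates the 2 number ranges, so both ranges were also analysed apart, each sharing its rats with the comparison of all rats.

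Reads on genes ranged from 19309449 to 44449859 per mouse library and from 24684097 to 40629873 per rat library. Levels are given as CPM, which are reads scaled to a common library size, and compare animals rather than genes because gene length is not taken into account. The targeted gene itself was lower in every KO mouse, at 15.2 to 16.3 CPM against 39.8 to 49.4 CPM in WT. In the rat, Ctns RNA lay between 16.8 and 22.2 CPM in KO and between 19.2 and 27.96 CPM in WT, with a log2 fold change of -0.22 ± 0.08 (edgeR adjusted p = 0.0511). It was lower in KO in rats 25 to 32 (-0.32 ± 0.11, adjusted p = 0.0391) and did not pass in rats 17 to 24 (-0.11 ± 0.08, adjusted p = 0.514), and KO and WT rats overlapped in both ranges. Proximal tubule markers were abundant in all libraries (summed level at least 9113 CPM), and macrophage markers were detected in every library too (at least 140 CPM).

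Interferons bind receptors at the cell surface that activate JAK kinases and transcription factors of the STAT family. Type I and type III interferons assemble a complex holding STAT2 and IRF9 that binds the interferon-stimulated response element (ISRE), whereas interferon-gamma acts mainly through the gamma-activated site (GAS). The induced proteins include sensors of foreign RNA, enzymes that block viral replication, the ubiquitin-like modifier ISG15 and its removing enzyme, and further transcription factors that extend the response.

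Because these genes are defined by a shared response, their promoters were read first. RefSeq promoter windows of the rat build GRCr8, from 250 bases before to 50 bases after the annotated gene start, were at hand for 30 of the 42 genes. The ISRE was searched on both strands as GAAA, any 2 bases, GAAA, or its reverse complement TTTC, any 2 bases, TTTC. It was found in 19 of the 30 windows (63.3%), against 1312 of all 33469 windows (3.92%). The GAS, searched as TTC, any 3 bases, GAA, was found in 6 of the 30 windows (20%), against 8.87% of all windows, and in 1 window it overlapped an ISRE match. A match is a description of the letters and does not show that a factor binds there.

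The 100 bases before the gene start are shown for the genes that were higher in KO rats and had an ISRE match in that stretch, with the matched letters in capitals, in the direction of transcription.
IRF7, chr1:205800024-205800123, minus strand: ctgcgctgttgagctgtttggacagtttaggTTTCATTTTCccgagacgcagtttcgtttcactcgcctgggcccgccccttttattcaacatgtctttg
IFIH1, chr3:67683969-67684068, minus strand: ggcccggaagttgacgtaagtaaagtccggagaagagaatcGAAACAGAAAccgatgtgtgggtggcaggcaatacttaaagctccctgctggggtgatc
IFIT3, chr1:241527226-241527325, plus strand: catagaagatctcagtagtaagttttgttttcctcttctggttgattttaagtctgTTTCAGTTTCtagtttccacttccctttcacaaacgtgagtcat
IFITM3, chr1:205541759-205541858, minus strand: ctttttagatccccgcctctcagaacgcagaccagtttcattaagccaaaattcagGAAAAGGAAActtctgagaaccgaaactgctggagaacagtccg
LGALS3BP, chr10:104127849-104127948, minus strand: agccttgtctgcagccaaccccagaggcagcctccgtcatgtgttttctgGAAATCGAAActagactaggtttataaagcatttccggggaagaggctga
PARP12, chr4:68850542-68850641, minus strand: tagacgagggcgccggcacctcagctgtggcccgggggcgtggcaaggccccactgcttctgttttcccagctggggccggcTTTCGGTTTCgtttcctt
PARP14, chr11:78408034-78408133, plus strand: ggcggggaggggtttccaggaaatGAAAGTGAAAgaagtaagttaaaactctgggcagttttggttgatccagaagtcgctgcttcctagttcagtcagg
GBP5, chr2:233910899-233910998, plus strand: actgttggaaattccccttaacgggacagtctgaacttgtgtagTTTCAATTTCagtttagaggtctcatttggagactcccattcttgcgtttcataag
IFI44, chr2:243303841-243303940, minus strand: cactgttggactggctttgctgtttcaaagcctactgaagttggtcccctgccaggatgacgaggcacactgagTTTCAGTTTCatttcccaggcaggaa
IFI27, chr6:128355212-128355311, plus strand: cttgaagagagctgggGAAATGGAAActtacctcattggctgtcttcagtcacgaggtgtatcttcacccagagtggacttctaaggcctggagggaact
XAF1, chr10:57415835-57415934, plus strand: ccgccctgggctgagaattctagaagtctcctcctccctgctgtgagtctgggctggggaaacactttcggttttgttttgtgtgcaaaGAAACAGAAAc
In these 11 promoters the first matched base lay between position -84, in IFI27, and position -11, in XAF1, counted from the gene start. IRF1, IRF9 and SAMHD1 carried a GAS match and no ISRE match, and IFITM3, PARP14 and BST2 carried both.

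**Figure D1:**
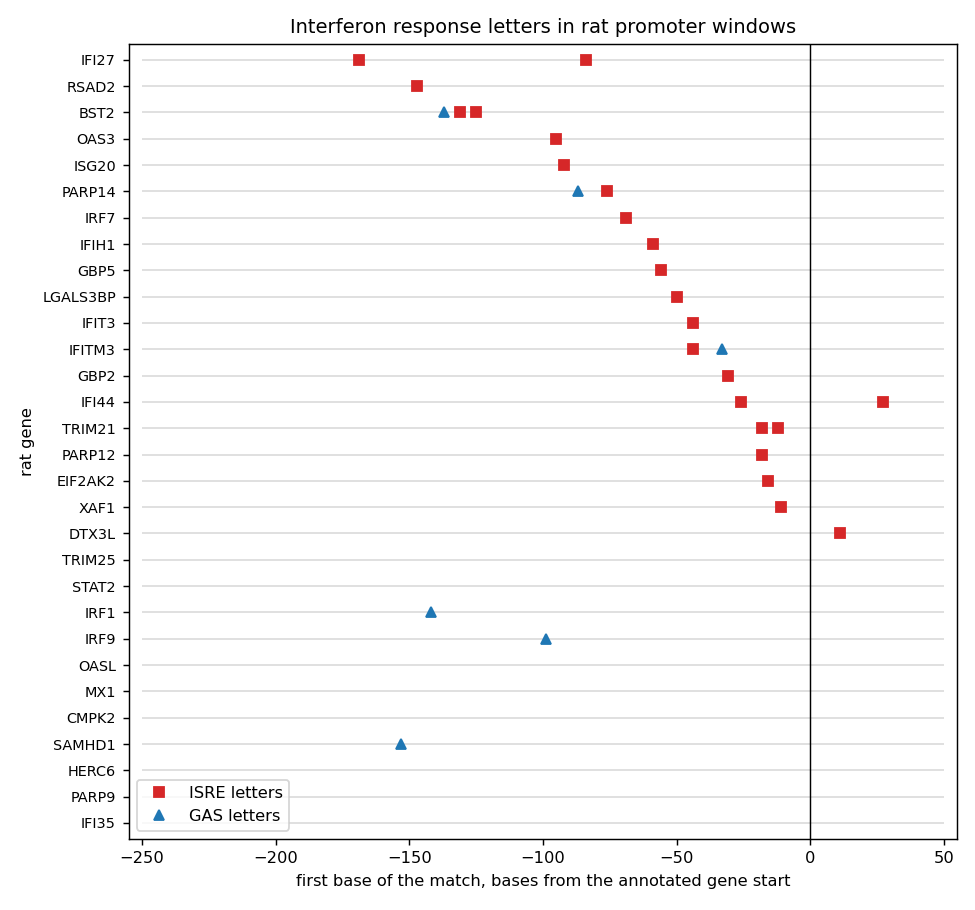
Position of ISRE letters (red squares) and GAS letters (blue triangles) in the rat promoter windows of 30 interferon-stimulated genes, in bases from the annotated gene start (vertical line). The 19 genes with an ISRE match are on top, ordered by position, and 11 genes without one are below.

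In the mouse, 15 of the 35 genes were higher in KO than in WT kidney and none was lower (limma with Benjamini-Hochberg adjustment over all genes, adjusted p under 0.05). Over all 13442 genes tested, 6.36% were higher. The fold change was positive for 32 of the 35 genes, with a median log2 fold change of 0.35 against 0.01 over all genes. At an unadjusted p under 0.05, 25 genes were higher and 1, RSAD2, was lower. edgeR and DESeq2 on the recovered reads each called 15 higher and none lower, where 6.06% and 6.92% of all genes were higher.

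In the rat, 25 of the 34 tested genes were higher in KO than in WT kidney and none was lower (edgeR quasi-likelihood test with Benjamini-Hochberg adjustment). Over all 11584 genes tested, 15.2% were higher. The fold change was positive for 33 of the 34 genes, with a median log2 fold change of 0.63 against -0.02 over all genes. At an unadjusted p under 0.05, 31 genes were higher and none was lower. DESeq2 and limma-voom each called 28 higher and none lower, where 16.8% and 14.9% of all genes were higher. Of the tested genes with a promoter window, 11 of 15 with an ISRE match and 8 of 11 without one were called higher, with median log2 fold changes of 0.53 and 0.49.

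**Figure D2:**
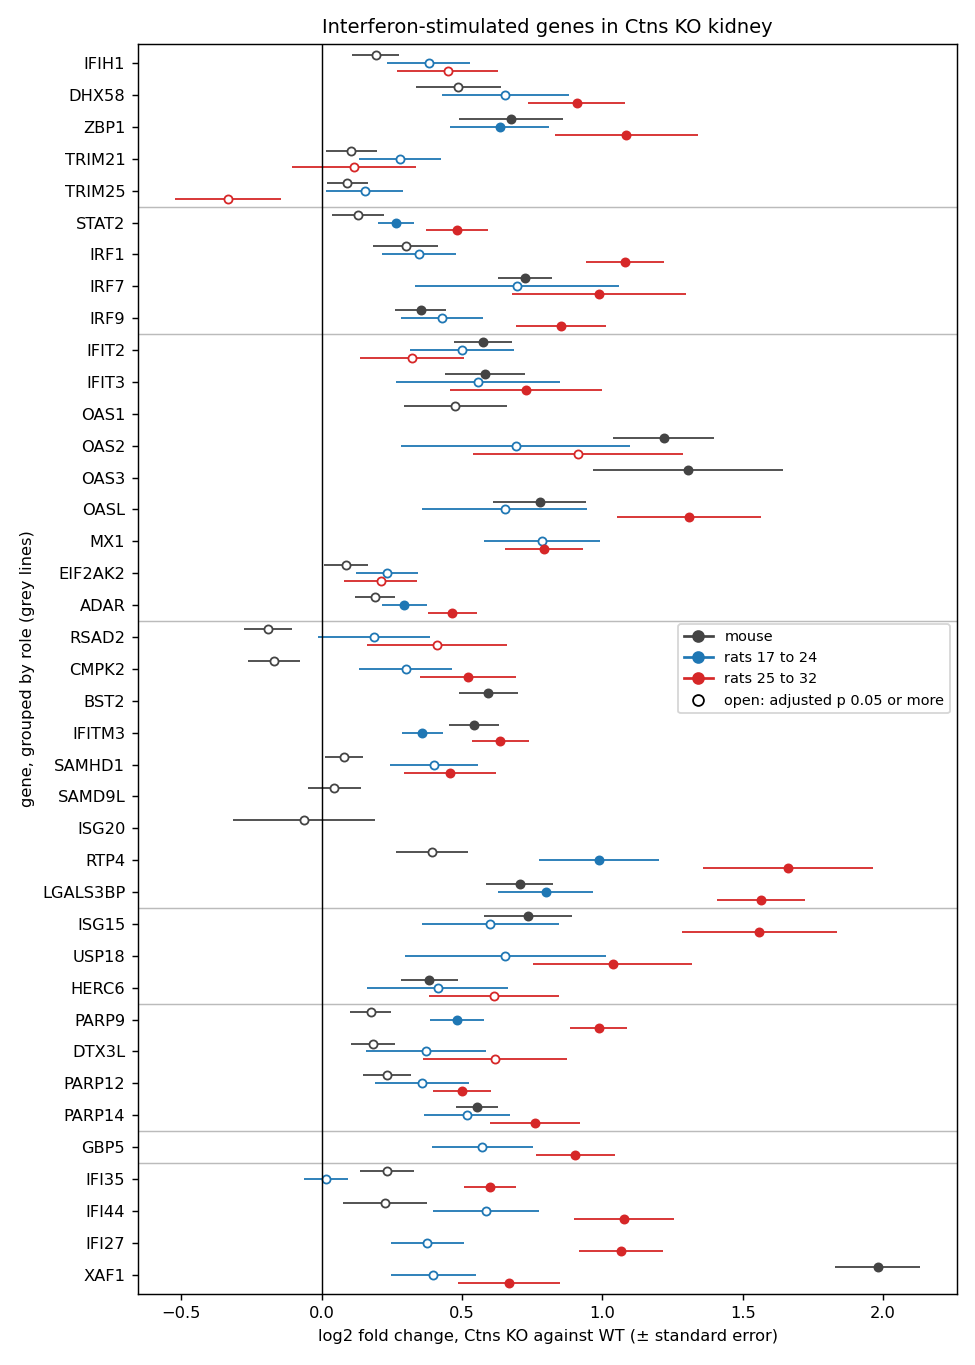
Log2 fold change between Ctns KO and WT kidney (horizontal axis, ± standard error) for the 39 interferon-stimulated genes with a row in either table, in mice (grey), rats 17 to 24 (blue) and rats 25 to 32 (red), grouped by role. Filled points passed an adjusted p of 0.05, and nearly all points lie to the right of 0, the exceptions being TRIM25 in rats 25 to 32 and RSAD2, CMPK2 and ISG20 in mice.

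Among the sensors, ZBP1, which binds nucleic acids in the Z form, was higher in both species. In the mouse it stood at 3.55, 4.11, 3.01 and 3.17 CPM in KO and at 2.80, 2.06, 2.33 and 1.69 CPM in WT. The mouse groups did not overlap, with a log2 fold change of 0.67 ± 0.19 (standard error, limma adjusted p = 0.0382). In the rat it ranged from 3.74 to 7.19 CPM in KO with a median of 5.04, and from 1.64 to 4.44 CPM in WT with a median of 2.73. The rat groups overlapped, and the log2 fold change was 0.87 ± 0.19 (edgeR adjusted p = 0.00229). IFIH1, a sensor of long double-stranded RNA also known as MDA5, and DHX58, its regulator, were higher in the rat, by 0.41 ± 0.13 and 0.79 ± 0.17 on the log2 scale (edgeR adjusted p = 0.0225 and 0.00219). In the mouse their log2 fold changes of 0.19 and 0.49 did not pass the test. TRIM21, an intracellular antibody receptor, and TRIM25, a ubiquitin ligase acting on the RNA sensor RIG-I, passed in neither species. TRIM25 was the only gene with a negative rat fold change, -0.09 ± 0.14 on the log2 scale.

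All 4 transcription factors of the set were higher in KO rats, and IRF7 and IRF9 also in KO mice. IRF7, which drives further interferon gene expression, stood at 22.98, 22.9, 20.2 and 19.9 CPM in KO mice and at 14.2, 11.2, 13.9 and 13.6 CPM in WT mice. These mouse groups were clearly apart, with a log2 fold change of 0.73 ± 0.10 (limma adjusted p = 0.000323). In rats IRF7 ranged from 57.3 to 106 CPM in KO (median 70.8) and from 20.4 to 74.4 CPM in WT (median 39.5). The rat groups overlapped, WT rats 19 and 29 reaching the KO range, and the log2 fold change was 0.84 ± 0.24 (edgeR adjusted p = 0.0138).

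IRF9, the DNA-binding subunit of the complex with STAT2, stood at 33.8, 29.7, 28.03 and 26.2 CPM in KO mice and at 26.1, 23.2, 21.8 and 22.3 CPM in WT mice. The lowest KO mouse was just above the highest WT mouse, with a log2 fold change of 0.35 ± 0.09 (limma adjusted p = 0.0285). In rats it ranged from 26.7 to 40.7 CPM in KO (median 31.7) and from 14.01 to 30 CPM in WT (median 20.6), an overlap made by WT rat 19. The rat log2 fold change was 0.62 ± 0.13 (edgeR adjusted p = 0.00213). STAT2 ranged from 48.9 to 64.2 CPM in KO rats (median 52.1) and from 36.5 to 48.7 CPM in WT rats (median 39.96). Every KO rat lay above every WT rat, yet the log2 fold change was only 0.37 ± 0.07 (edgeR adjusted p = 0.0014). In the mouse STAT2 overlapped between groups, at 35.8, 34.5, 29.3 and 30.04 CPM in KO and 29.6, 34.1, 30.1 and 26.5 CPM in WT, with a log2 fold change of 0.13 ± 0.09 (limma adjusted p = 0.47).

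Among the RNA-binding and nucleotide-synthesising effectors, the oligoadenylate synthetases OAS2 and OAS3, whose product activates RNase L, gave the largest mouse fold changes after XAF1. OAS2 stood at 4.65, 3.31, 3.46 and 3.26 CPM in KO mice and at 1.90, 1.59, 1.45 and 1.40 CPM in WT mice. The groups were separate, with a log2 fold change of 1.22 ± 0.18 (limma adjusted p = 0.000827). OAS3 rose from 0.768, 0.423, 0.438 and 0.304 CPM in WT mice to 0.799, 1.75, 1.08 and 1.10 CPM in KO mice, from 8 to 48 reads per library, a log2 fold change of 1.30 ± 0.34 (limma adjusted p = 0.0282). OAS1 was above the WT range in all 4 KO mice, 1.64 to 2.10 against 1.27 to 1.42 CPM, but its log2 fold change of 0.48 ± 0.18 did not pass the test (limma adjusted p = 0.142).

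In rats OAS2 ranged from 3.72 to 6.79 CPM in KO (median 4.98) and from 1.02 to 5.55 CPM in WT (median 2.83). Its log2 fold change of 0.79 ± 0.29 was just short of the threshold (edgeR adjusted p = 0.0507). OASL, a relative without synthetase activity in its human form, was higher in both species. It stood at 5.75, 5.10, 5.78 and 4.09 CPM in KO mice against 2.77, 3.49, 3.51 and 2.50 CPM in WT mice, without overlap (log2 fold change 0.78 ± 0.17, limma adjusted p = 0.00957). In rats it ranged from 8.43 to 15.9 CPM in KO (median 12.1) and from 3.20 to 9.48 CPM in WT (median 6.85), with WT rat 19 inside the KO range (log2 fold change 0.99 ± 0.22, edgeR adjusted p = 0.00304).

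IFIT3, which works in a complex that binds viral RNA, was at 21.4, 18.2, 16.8 and 17.9 CPM in KO mice and at 11.8, 13.3, 9.67 and 16.3 CPM in WT mice. The mouse groups were adjacent but separate, with a log2 fold change of 0.58 ± 0.14 (limma adjusted p = 0.0245). In rats it ranged from 9.90 to 14.6 CPM in KO (median 12.4) and from 4.01 to 12.7 CPM in WT (median 7.55), and the overlapping groups differed by 0.63 ± 0.21 on the log2 scale (edgeR adjusted p = 0.0315). IFIT2, its partner, was higher in mice (0.58 ± 0.10, limma adjusted p = 0.00334) and missed the threshold in rats (0.42 ± 0.15, edgeR adjusted p = 0.0527). MX1, a GTPase that traps viral particles, had a row in the rat table and ranged from 80.3 to 115 CPM in KO rats (median 84.5) and from 37.0 to 70.6 CPM in WT rats (median 51.7), without overlap (log2 fold change 0.78 ± 0.12, edgeR adjusted p = 0.000214). ADAR, which edits adenosine to inosine in double-stranded RNA, was higher in rats by 0.38 ± 0.07, while EIF2AK2, the double-stranded RNA-dependent kinase PKR, passed in neither species.

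Several rodent genes of the IFIT, OAS, MX and IFITM families can stand under a single human-style symbol. The values of IFIT3, OAS1 and IFITM3 in the mouse and of OAS1, MX1 and IFITM3 in the rat were not all whole reads and are uncertain to that extent.

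Membrane and nucleotide effectors included the strongest rat responses. RTP4, a chaperone for membrane receptors, ranged from 10.7 to 26.9 CPM in KO rats (median 15.8) and from 3.83 to 10.1 CPM in WT rats (median 6.60). No rats overlapped, and the log2 fold change was 1.36 ± 0.23, a 2.57-fold difference (edgeR adjusted p = 0.000503). In mice RTP4 was at 8.29, 8.04, 7.32 and 6.199 CPM in KO and at 6.61, 5.55, 5.56 and 5.29 CPM in WT, overlapping in 1 KO animal (log2 fold change 0.39 ± 0.13, limma adjusted p = 0.0799).

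LGALS3BP, a secreted glycoprotein that binds galectin-3, was the one gene past the threshold in the mouse, in both rat number ranges and in the test between the ranges. It stood at 126, 150, 142 and 126 CPM in KO mice and at 82.9, 98.7, 93.8 and 66.2 CPM in WT mice, without overlap (log2 fold change 0.70 ± 0.12, limma adjusted p = 0.00369). In rats 17 to 24 it was at 102, 112, 117 and 116 CPM in KO and at 58.1, 87.7, 47.7 and 65.0 CPM in WT. In rats 25 to 32 it was at 175, 237, 215 and 179 CPM in KO and at 70.8, 53.7, 90.0 and 60.4 CPM in WT. KO and WT were separate in both ranges, by 0.80 ± 0.17 and 1.57 ± 0.16 on the log2 scale (edgeR adjusted p = 0.0284 and 3.93e-05).

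IFITM3, which hinders fusion of viruses with endosomal membranes, was at 25.5, 25.3, 24.8 and 22.1 CPM in KO mice and at 19.3, 17.4, 15.6 and 15.9 CPM in WT mice, without overlap (log2 fold change 0.54 ± 0.09, limma adjusted p = 0.00172). In rats it ranged from 35.0 to 55.9 CPM in KO (median 42.6) and from 27.1 to 37.1 CPM in WT (median 30.6), with WT rat 29 inside the KO range and a log2 fold change of 0.51 ± 0.10 (edgeR adjusted p = 0.00179). BST2, which tethers budding viruses, had a row in the mouse only and was higher there by 0.59 ± 0.10 (limma adjusted p = 0.00253). SAMHD1, which degrades deoxynucleotides, was higher in rats by 0.42 ± 0.12 and not in mice (0.08 ± 0.07). SAMD9L and ISG20 had a row in the mouse only and did not pass. Their log2 fold changes were 0.045 ± 0.095 and -0.062 ± 0.254 (limma adjusted p = 0.85 and 0.923).

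RSAD2, the antiviral enzyme viperin, and CMPK2, a nucleotide kinase, are neighbours on mouse chromosome 12. Like ISG20, and unlike the other tested genes of the set, both had a negative fold change in the mouse. RSAD2 ranged from 32.5 to 36.7 CPM in KO mice and from 34.0 to 45.6 CPM in WT mice, and CMPK2 from 16.4 to 19.5 CPM in KO and 17.4 to 23.1 CPM in WT. Both pairs of groups overlapped, and the log2 fold changes of -0.19 ± 0.09 and -0.17 ± 0.09 did not pass the test (limma adjusted p = 0.208 and 0.324). In rats CMPK2 was higher by 0.40 ± 0.13 (edgeR adjusted p = 0.03), and RSAD2 had a log2 fold change of 0.28 ± 0.18 that did not pass.

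ISG15, the ubiquitin-like protein that is attached to other proteins, was at 4.35, 4.22, 5.33 and 4.44 CPM in KO mice and at 3.35, 2.38, 3.03 and 2.46 CPM in WT mice. The groups were separate, with a log2 fold change of 0.74 ± 0.16 (limma adjusted p = 0.00905). In rats ISG15 ranged from 9.27 to 22.9 CPM in KO (median 14.03) and from 3.25 to 10.7 CPM in WT (median 6.40). WT rats 19 and 29 reached the lower KO animals, and the log2 fold change was 1.15 ± 0.25, a 2.21-fold difference (edgeR adjusted p = 0.00307). USP18, the protease that removes ISG15, had a row in the rat only and was higher by 0.82 ± 0.24 (edgeR adjusted p = 0.0166). HERC6, which attaches ISG15 in the mouse, was higher in mice by 0.38 ± 0.10 (limma adjusted p = 0.0321), and its rat log2 fold change of 0.49 ± 0.21 did not pass (edgeR adjusted p = 0.0934).

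Of the ADP-ribosyltransferase group, PARP14 was higher in both species. It stood at 39.2, 43.1, 38.0 and 34.9 CPM in KO mice against 27.3, 27.2, 26.5 and 25.9 CPM in WT mice, and every KO mouse exceeded every WT mouse by more than the spread within WT (log2 fold change 0.55 ± 0.08, limma adjusted p = 0.000386). In rats it ranged from 35.4 to 62.0 CPM in KO (median 43.6) and from 22.5 to 35.3 CPM in WT (median 29.3), adjacent but separate (log2 fold change 0.64 ± 0.12, edgeR adjusted p = 0.000919). PARP9 was at 42.7, 44.8, 51.4 and 41.0 CPM in KO and 29.3, 38.4, 29.2 and 32.6 CPM in WT rats 17 to 24, and at 54.9, 69.3, 71.6 and 55.6 CPM in KO and 32.05, 30.4, 35.0 and 30.5 CPM in WT rats 25 to 32. No KO rat overlapped a WT rat, and the log2 fold change over all rats was 0.75 ± 0.11 (edgeR adjusted p = 0.000158). DTX3L, the ubiquitin ligase that pairs with PARP9 and adjoins it on mouse chromosome 16, missed the threshold in rats (0.49 ± 0.18, edgeR adjusted p = 0.0554), and neither passed in mice. GBP5, a guanylate-binding protein that acts on pathogen-containing vacuoles and had a row in the rat only, was higher by 0.74 ± 0.13 (edgeR adjusted p = 0.000559).

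**Figure D3:**
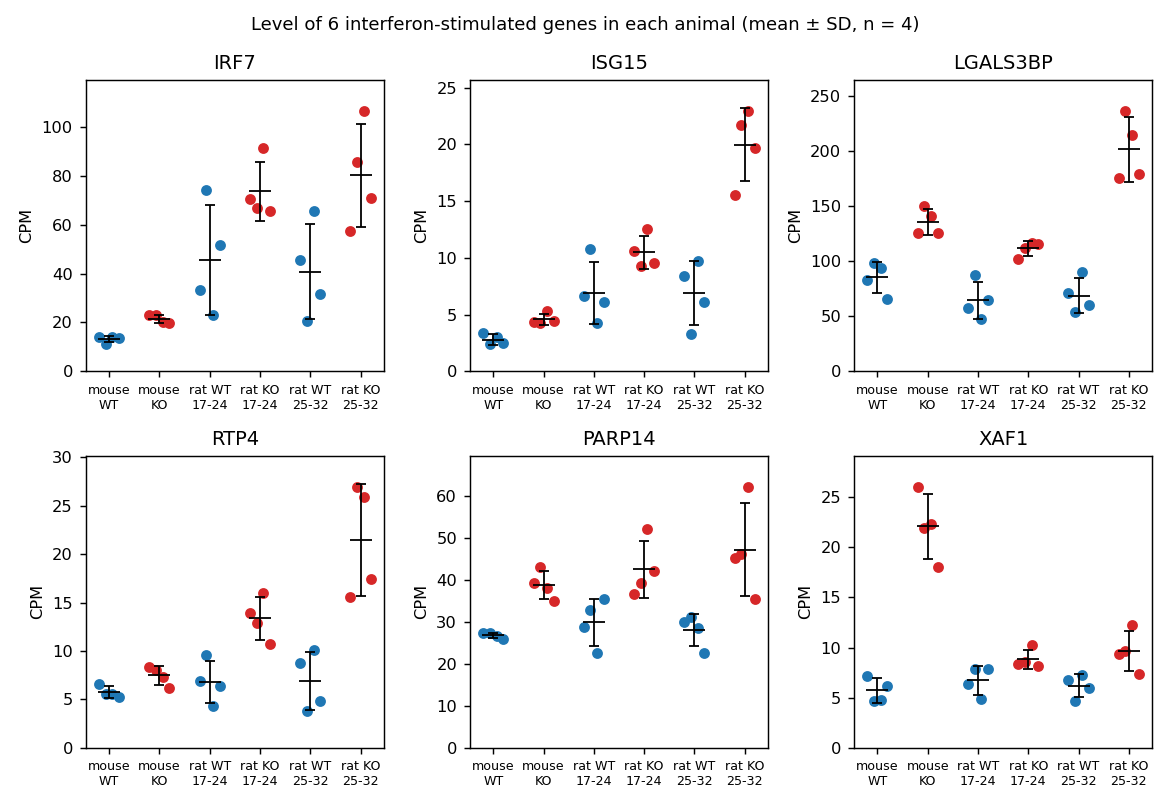
CPM of IRF7, ISG15, LGALS3BP, RTP4, PARP14 and XAF1 in each animal, WT in blue and Ctns KO in red, with the mean and SD of each group of 4. XAF1 is 18.05 to 25.98 CPM in KO mice and at most 12.3 CPM in every other group, and LGALS3BP reaches 175 to 237 CPM in KO rats 25 to 32.

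XAF1, a protein first described as a partner of the apoptosis inhibitor XIAP, gave the largest fold change of the set in the mouse. It was at 25.98, 21.9, 22.3 and 18.05 CPM in KO mice and at 7.19, 4.70, 4.75 and 6.202 CPM in WT mice. The lowest KO animal was far above the highest WT animal, with a log2 fold change of 1.98 ± 0.15, a 3.95-fold difference (limma adjusted p = 9.48e-06). In rats it ranged from 7.39 to 12.3 CPM in KO (median 8.98) and from 4.66 to 7.87 CPM in WT (median 6.55), and WT rats 19 and 23 lay inside the KO range, with a log2 fold change of 0.53 ± 0.13 (edgeR adjusted p = 0.0057).

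XAF1 was the only gene whose KO effect differed between the species, rat less mouse -1.41 ± 0.22 on the log2 scale (limma interaction test over 10681 shared genes, adjusted p = 0.000701), against 2.03% of all genes in either direction. In the annotation of the mouse build mm10, Xaf1 lies on chromosome 11 at 72301629 to 72313733 and Ctns on the same chromosome at 73183596 to 73199042, 0.87 Mb apart. No other gene of the set is within 1 Mb of Ctns. Of the 24 genes tested within 1 Mb of Ctns in the mouse, 3 were called in either direction (12.5%), XAF1 among them, against 8.65% of all genes, and the part of this position in the XAF1 result was not tested. In the rat Xaf1 is also a neighbour of Ctns, and 11 of 28 genes tested within 1 Mb were called (39.3%), XAF1 among them, against 27.5% of all genes.

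Of the 30 genes tested in both species, 10 were higher in both mice and all rats, namely ZBP1, IRF7, IRF9, IFIT3, OASL, IFITM3, LGALS3BP, ISG15, PARP14 and XAF1, where 3.93% of the 10681 shared genes were higher in both. They made up 10 of the 13 mouse calls and 10 of the 21 rat calls among the genes tested in both. IFIT2, OAS2 and HERC6 were called in the mouse and not over all rats, and 11 genes, among them STAT2, IRF1, RTP4, PARP9 and ADAR, in the rat and not in the mouse. With the number range as a covariate, edgeR called IFIT2, OAS2 and HERC6 higher in rats too, as well as DTX3L and IFI35, and DESeq2 and limma-voom called IFIT2, OAS2 and DTX3L. Apart from XAF1, the species test did not show that these effects differed, PARP9 coming closest (0.59 ± 0.17, limma adjusted p = 0.0727).

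The rat number ranges gave different counts. In rats 17 to 24, 7 of 34 genes were higher in KO (ZBP1, STAT2, ADAR, IFITM3, RTP4, LGALS3BP and PARP9), against 5.07% of all genes, and none was lower, also at an unadjusted p under 0.05 and by DESeq2 and limma-voom. In rats 25 to 32, 25 of 34 were higher, against 21.8% of all genes, and none was lower by edgeR, at an unadjusted p under 0.05 or by the other tools. All 7 genes of the first range were among the 25 of the second. The log2 fold change was positive for all 34 genes in rats 17 to 24 (median 0.42) and for 33 in rats 25 to 32 (median 0.74), and it was larger in rats 25 to 32 for 30 of the 34.

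The test between the ranges passed for 5 genes, IRF1, LGALS3BP, PARP9, IFI35 and IFI27, each with a larger KO effect in rats 25 to 32, where 7.1% of all genes passed in that direction. IRF1, a transcription factor shared by interferon-gamma and type I responses, was at 24.6, 31.9, 33.1 and 30.4 CPM in KO and 25.5, 27.99, 18.2 and 23.3 CPM in WT rats 17 to 24. In rats 25 to 32 it was at 41.7, 56.5, 51.4 and 41.6 CPM in KO and 22.4, 18.6, 28.2 and 22.1 CPM in WT. KO and WT overlapped in the first range only, and the fold changes differed by 0.74 ± 0.21 on the log2 scale (edgeR adjusted p = 0.0263).

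IFI35, a partner of the transcription modulator NMI, was at 20.2, 23.8, 23.5 and 22.97 CPM in KO and 21.7, 23.9, 20.4 and 23.95 CPM in WT rats 17 to 24, with no visible difference (log2 fold change 0.02 ± 0.08). In rats 25 to 32 it was at 33.7, 42.2, 34.6 and 37.9 CPM in KO and 24.6, 21.97, 24.9 and 27.4 CPM in WT. The second range was fully separate (0.60 ± 0.09), and the difference of the fold changes was 0.59 ± 0.12 (edgeR adjusted p = 0.00625). IFI27, a mitochondrial protein and a much used interferon marker, was at 171, 172, 185 and 147 CPM in KO and 124, 167, 105 and 127 CPM in WT rats 17 to 24, and at 187, 266, 250 and 215 CPM in KO and 110, 88.7, 142 and 101 CPM in WT rats 25 to 32. Its fold changes differed by 0.69 ± 0.22 on the log2 scale (edgeR adjusted p = 0.0419), as did those of LGALS3BP by 0.77 ± 0.24 (adjusted p = 0.0423) and PARP9 by 0.51 ± 0.15 (adjusted p = 0.0314). IFI44, a cytoplasmic protein of the same response, was higher over all rats (0.81 ± 0.15, edgeR adjusted p = 0.00104) and did not pass the test between ranges.

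Between WT rats of the 2 ranges none of the 34 genes passed the test (edgeR), against 21.1% of all genes in either direction. At an unadjusted p under 0.05, 1 was higher and 3 were lower in WT rats 25 to 32, limma-voom called none, and DESeq2 called HERC6 lower.

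WT rat 19 had the highest level of the WT rats in these genes. Its median log2 level over the 34 genes, relative to the WT mean, was 0.42, where the other 7 WT rats lay between -0.38 and 0.22 and KO rats 17 to 24 between 0.45 and 0.71. It was the highest of the 8 WT rats for 19 of the 34 genes, and WT rat 29 for 7. It lay above the lowest KO rat of its range for 24 genes and above all KO rats of its range for 1. These counts were not made over all genes, so nothing about the set can be read from them. Its macrophage markers (-0.03) and lymphocyte markers (-0.17) were within the values of all other WT rats. Within its own range it was the highest WT rat for both, if narrowly. The other WT rats of 17 to 24 lay between -0.44 and -0.04 for macrophage markers and between -0.62 and -0.19 for lymphocyte markers. Its plasmacytoid dendritic cell markers, at 0.32, were above the other WT rats (-0.27 to 0.16) and inside the values of KO rats 17 to 24 (0.16 to 0.35), and their part in its interferon-stimulated gene levels was not tested. Rat 19 was picked for its high level in these same genes, so a lower WT level without it was given in advance. Without it, 30 of 34 genes were higher over all rats (15% of all genes) and 16 of 34 in rats 17 to 24 (4.63% of all genes). IFI35 alone then remained past the threshold in the test between ranges, where 5.19% of all genes were more positive in rats 25 to 32. That test likewise kept IFI35 alone without WT rat 27 (4.71% of all genes) or without KO rat 28 (4.09%). It gave 2 or 3 genes without WT rats 17, 25 or 31 or KO rats 18, 20, 22, 24, 30 or 32. The share of all genes was then 4.72% to 8.6%. These counts are out of 34 genes and near those shares. The count in rats 17 to 24 fell to between 2 and 4 without any 1 of the other 7 rats of that range, against 3.36% to 5.29% of all genes.

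**Figure D4:**
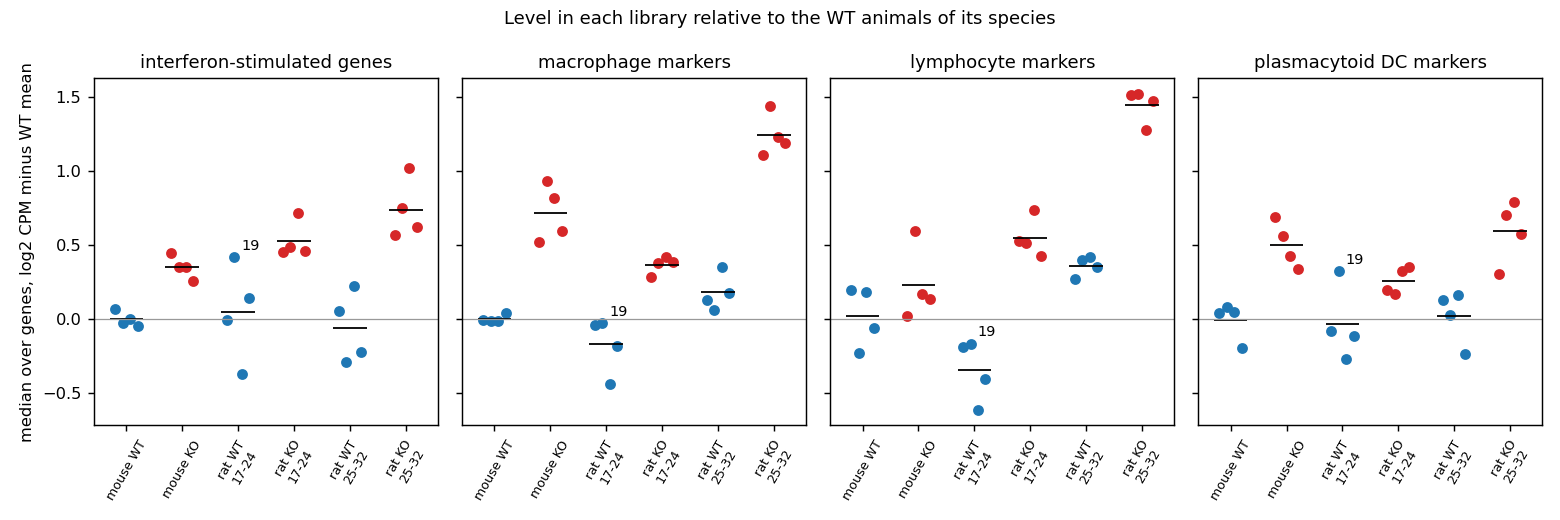
Median log2 CPM of each library relative to the WT mean of its species (vertical axis) for the interferon-stimulated genes and for macrophage, lymphocyte and plasmacytoid dendritic cell markers, WT in blue, Ctns KO in red, black lines at group means. WT rat 19 (labelled) is at 0.42 for the interferon-stimulated genes, -0.03 and -0.17 for macrophage and lymphocyte markers and 0.32 for plasmacytoid dendritic cell markers.

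Most macrophage markers were also higher in KO in both species. Of 12 such markers, 11 were higher in KO mice and 11 over all rats, 8 in rats 17 to 24 and 11 in rats 25 to 32. The shares of all genes that were higher were 6.36%, 15.2%, 5.07% and 21.8%, in the same order. Their summed level was 239 to 290 CPM in KO against 166 to 174 CPM in WT mice, 224 to 246 against 140 to 186 CPM in rats 17 to 24, and 417 to 589 against 201 to 251 CPM in rats 25 to 32. No macrophage marker was at 0. In bulk kidney, a change in the number of cells of a type and a change in RNA per cell cannot be told apart, and the part of macrophages in the results was not tested.

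In mice none of 11 lymphocyte markers passed by limma, edgeR or DESeq2 and 1 was higher at an unadjusted p under 0.05, with summed levels of 13.1 to 19.1 CPM in KO and 10.04 to 13.9 CPM in WT. All 8 tested lymphocyte markers were higher over all rats, at 35.1 to 38.5 against 20.3 to 28.8 CPM in rats 17 to 24 and 60.9 to 70.2 against 34.5 to 41.0 CPM in rats 25 to 32. In WT rats, 5 of 9 lymphocyte, 4 of 12 macrophage and 5 of 10 proximal tubule markers were higher in rats 25 to 32 than in rats 17 to 24. The macrophage marker CD14 and the proximal tubule marker CUBN were lower. Over all 11839 genes in that comparison, 1386 were higher and 1117 lower. Of the markers of plasmacytoid dendritic cells, known for their interferon output, 2 of 8 were higher in mice, 1 of them BST2, itself an interferon-stimulated gene, and 2 of 6 in rats. Proximal tubule markers were lower for 8 of 10 genes over all rats (9113 to 13190 against 15000 to 21220 CPM summed) and for 1 of 11 in mice. Fibroblast markers were higher for 5 of 10 in mice and 7 of 8 in rats, and of the endothelial markers 1 of 10 was lower in mice, while 1 of 9 was higher and 1 lower in rats. Over all genes, 6.36% were higher in mice and 15.2% over all rats, while 308 of 13442 were lower in mice and 1420 of 11584 over all rats. The part of each list in the results was not tested.

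Genes upstream of the response were taken from lists. Their counts stand against 6.36% of all genes higher in mice, 15.2% over all rats and 21.8% in rats 25 to 32. Of 9 interferon genes searched, 4 had a row in each table, with at most 5 reads in any mouse library and 3 in any rat library, too few to test. Of the interferon receptors and JAK-STAT genes, 2 of 11 were higher in mice (IFNGR1 and STAT3) and 4 of 10 over all rats, none was lower, and the median log2 fold changes were 0.11 and 0.21. By edgeR, 1 of 10 was higher in rats 17 to 24, STAT3 (5.07% of all genes), and 5 of 10 in rats 25 to 32 (21.8%). The receptor IFNAR1 did not pass in either species (0.05 ± 0.06 in mice, 0.03 ± 0.04 in rats).

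Among nucleic acid sensors and their adaptors, 5 of 16 were higher in mice and 6 of 15 in rats, against 6.36% and 15.2% of all genes. CGAS, which senses cytosolic DNA, and STING1, its adaptor, were higher in rats by 1.13 ± 0.23 and 0.96 ± 0.17 on the log2 scale (edgeR adjusted p = 0.00179 and 0.000726). In mice they had log2 fold changes of 0.61 ± 0.26 and 0.49 ± 0.15 (limma adjusted p = 0.191 and 0.0539). In rats 17 to 24 edgeR called 1 of the 15 sensing genes higher, TLR7, near the share of all genes (5.07%). At an unadjusted p under 0.05, 5 were higher there and 2 lower. In rats 25 to 32, 7 of 15 were higher, CGAS and STING1 among them, against 21.8% of all genes. STING1 and DDX41 passed the test between ranges, with the larger KO effect in rats 25 to 32, against 7.1% of all genes. IRF3, which both sensing routes activate, did not pass (-0.11 ± 0.07 in mice and -0.17 ± 0.08 in rats). Of the nucleases that clear self nucleic acids, 0 of 7 passed in mice by limma or edgeR and 1 by DESeq2. At an unadjusted limma p under 0.05, 1 was higher and 1 lower. Over all rats 1 of 8 was higher, DNASE2, which is near the share of all genes (15.2%). In rats 4 of 8 were higher at an unadjusted p under 0.05, DESeq2 called 4, and edgeR called 4 in rats 25 to 32 (TREX1, RNASEH2A, DNASE2 and RNASET2).

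Genes leaning to interferon-gamma were higher for 5 of 16 in mice (median log2 fold change 0.28) and 12 of 16 in rats (0.79). The shares of all genes were 6.36% and 15.2%. In rats 17 to 24, 8 of 16 were higher, against 5.07% of all genes. TAP2, called higher in mice, was lower there (edgeR), where 254 of 11610 genes were lower. In rats 25 to 32, 13 of 16 were higher and none was lower, against 21.8% of all genes higher. The test between ranges passed for 6 of 16, TAP2, PSMB8 and PSMB10 among them, each more positive in rats 25 to 32, against 7.1% of all genes. CXCL10, a chemokine that draws T cells, ranged from 6.87 to 10.4 CPM in KO mice and from 3.35 to 3.94 CPM in WT mice, and from 8.95 to 22.2 CPM in KO rats and from 3.34 to 7.98 CPM in WT rats. Neither species overlapped, with log2 fold changes of 1.25 ± 0.15 and 1.41 ± 0.20 (limma adjusted p = 0.000155, edgeR adjusted p = 0.000112). Among WT rats alone, CXCL10, CXCL11 and WARS1 were higher and TAP2 lower in rats 25 to 32 than in rats 17 to 24 (edgeR). In that comparison 1386 of all 11839 genes were higher and 1117 lower. PSMB8 and PSMB10, subunits of the immunoproteasome, were higher by 0.44 ± 0.10 and 0.42 ± 0.10 in mice and by 1.33 ± 0.22 and 1.15 ± 0.20 in rats, and the adhesion molecule ICAM1 by 0.47 ± 0.09 and 0.60 ± 0.10.

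Of the inhibitors of the response, 2 of 10 were higher in mice and 1 of 8 over all rats, the latter near the share of all genes (15.2%). In rats 25 to 32 SOCS3 and PTPN6 were higher and PIAS1 and PTPN11 lower. These counts too were near those of all genes, of which 21.8% were higher and 2566 of 11633 lower. SOCS3, which blocks JAK kinases and also answers to interleukin-6, was the shared one, with log2 fold changes of 1.13 ± 0.17 in mice and 1.79 ± 0.28 in rats (limma adjusted p = 0.000836, edgeR adjusted p = 0.000198). A wider list of interferon-stimulated genes outside the set of 42 had 4 of 28 higher in mice (median log2 fold change 0.13) and 9 of 22 higher over all rats (0.22). None was lower in either comparison, and LY6E was called in both. Both medians were below those of the set itself (0.35 in mice and 0.63 over all rats), and over all genes 6.36% and 15.2% were higher. In rats 25 to 32, 10 of the 22 were higher and 3 were lower (TRIM14, MOV10 and PNPT1), where 2534 of all 11633 genes were higher and 2566 lower.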

How the data were processed

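For the mouse, the deposited values are a scaled signal for each gene symbol: as worked out from the values, 0.5 was added to the reads and to the upper quartile of the library before the former was divided by the latter. Whole reads came back for 99.0% of values (within 0.01). The rat values as deposited are estimated counts, in which a constant of 1/6 had been added to the reads. It was taken off and the rest rounded (97.7% whole before rounding). Per the labels' processing notes, bcl2fastq 2.20, STAR 2.7.3, DESeq2 1.24.0 and R 3.6.1 and the builds mm10 and rn5 were used, and the libraries were stranded mRNA libraries. Several rodent genes can share 1 human-style symbol.

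The mouse test was limma 3.58.1 with trend and robust fitting of the log2 signal and no added pseudocount. The rat test was edgeR 4.0.16 (quasi-likelihood, TMM scaling) on the rounded counts. Both followed edgeR's filterByExpr, in R 4.3.3. The species test was a limma interaction on log2 values, the rat reads being scaled as the mouse table is. A call is a Benjamini-Hochberg adjusted p under 0.05 over all genes. CPM values are from recovered reads with TMM scaling. Relative to TMM, upper-quartile scaling shifted the mouse KO effect by 0.022 and DESeq2's size factors shifted the rat effect by 0.005 on the log2 scale. The main fits of the KO effect, of its difference between rat ranges and of its difference between species were tried on simulated counts. These had the same spread for every gene, unlike real data. The alternative fits were not tried in this way, and the contrast of WT rats only without a simulated effect.

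The genes and lists were chosen with earlier results of these data known. Values per animal, or for all rats the lowest, median and highest, are given for genes called in the mouse and in either rat range, for the 3 largest rises and falls called in each comparison, for genes passing the tests between ranges or species, and for IRF7, STAT2, IRF9 and ISG15. OAS1 is given by ranges, and IFIT1, also under the rule, had no row. MX1, BST2, RSAD2, CMPK2 and the other genes named outside this rule complete the account of the set. Alternatives were DESeq2 1.42.0, limma-voom, edgeR on mouse reads, other scalings, pseudocounts and filters, the number range as a covariate, and leaving out each animal. 1 gene of the pathway lists is not reported here.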

Additional observations from a re-analysis of the deposited data

Results flagged for a closer look

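In 72 groups of animals examined for a single distant animal, 1 was found, where chance alone gives about 1 in 20: KO mouse 3 had 4.65 CPM of OAS2, far from the other 3 KO mice (3.26 to 3.46 CPM). The KO effect differed between rats 25 to 32 and rats 17 to 24 by a test of the difference itself (edgeR) for IRF1 (0.74 on the log2 scale), LGALS3BP (0.77), PARP9 (0.51), IFI35 (0.59) and IFI27 (0.69), all larger in rats 25 to 32, and it differed between rat and mouse (limma) for XAF1 (-1.41, smaller in the rat).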

How the results depend on the processing

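Of 252 recomputed counts of higher or lower genes, 223 stayed within 1.5 times the reported count. The mouse count of 15 higher genes ran from 11 with log2(value + 1) and no filter to 16 with log2(value + 0.1), and from 10 to 14 when 1 mouse was left out. The shares of all genes were 3.5%, 6.57% and 3.94% to 7.47%, in the same order. The lower count in mice ran from 0 to 1, RSAD2 passing without WT mouse 2 (407 of 13560 genes lower). Over all rats, leaving out 1 animal gave 21 to 30 higher genes (12.6% to 17% of all genes), and the number range as a covariate gave 30 (19.3%). In rats 17 to 24, DESeq2 gave 15 higher genes in place of 7 (6.5% of all genes in place of 5.07%), and leaving out 1 rat gave 2 to 16 (3.36% to 5.29%). In rats 25 to 32, leaving out 1 rat gave 21 to 27 higher (18.4% to 21.8% of all genes) and 0 to 1 lower. TRIM25 passed as lower without KO rat 30, where 2702 of 11667 genes were lower. The test between ranges gave 1 to 5 genes when 1 rat was left out (4.09% to 8.6% of all genes). Between WT rats of the ranges, DESeq2 called 1 gene lower, where 1305 of 11839 genes were lower. Leaving out 1 rat gave 0 to 1 higher (PARP12, without WT rat 19, 9.11% of all genes). It gave 0 to 3 lower (HERC6, IFI44 and IRF9, without WT rat 21, where 930 of 11907 genes were lower). The species test gave 1 gene more positive in the rat with edgeR on reads and 0 to 1 when 1 animal was left out, PARP9, and XAF1 stayed past the threshold in all 26 alternatives. Of 1189 recomputed values of single genes, 1065 kept direction and side of the threshold, 98 lost and 22 gained the call, and 4 changed sign. These were IFI35 in rats 17 to 24, at -0.004 without WT rat 17 or KO rat 22, -0.031 without WT rat 21 and -0.009 without KO rat 20, within a range of -0.031 to 0.062 over the rats left out. The cause of these changes was not tested. ZBP1 lost its mouse call in 9 of 14 alternatives and IRF9 and OAS3 in 6 of 14, LGALS3BP its call between ranges in 13 of 19. No paired analysis was possible because no WT and KO animals share a number in the labels. Depth limits OAS3 in the mouse (8 to 48 reads per library), OAS1 in the rat and the interferon genes.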
